A study of Mus musculus with 9 samples.

Results

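The genes described here are 35 genes of glucose uptake, glycolysis and the control of pyruvate oxidation, out of the 17596 genes of the expression table. They were chosen by symbol as the glucose carriers, the enzymes from hexokinase to lactate dehydrogenase with their isoenzymes, the PFKFB regulators, and the kinases and phosphatases of pyruvate dehydrogenase. The study sequenced RNA of primary mouse splenic B cells in 9 libraries to compare cells with and without MCT1, the plasma membrane carrier of lactate and pyruvate encoded by Slc16a1. Mb1Cre control mice carry only the Cre transgene, which the Mb1 (Cd79a) locus drives in the B cell lineage. Mct1f/fMb1Cre mice carry in addition the floxed Mct1 alleles that Cre deletes in that lineage. All groups therefore carry Cre, and the mice were 6 to 8 weeks old. Day 0 cells were untreated (2 libraries per genotype), and day 3 cells had been in culture for 3 days with LPS at 10 μg/ml and with IL-4 at 50 ng/ml, which induces class switching (2 Mb1Cre and 3 Mct1f/fMb1Cre libraries). No unstimulated day 3 culture was analysed here, so stimulation and time in culture cannot be told apart. Nothing states whether libraries of a group came from separate mice, and p-values then measure only the spread between these libraries.

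Glycolysis splits glucose into pyruvate, and most of its steps can be run by several isoenzymes from separate genes that differ between tissues and in how they are regulated. Pyruvate can be reduced to lactate by lactate dehydrogenase, which renews the NAD that glyceraldehyde-3-phosphate dehydrogenase needs, or it can enter mitochondria for oxidation by pyruvate dehydrogenase. Pyruvate dehydrogenase kinases (PDK) switch that enzyme off and the phosphatases (PDP) switch it on again. Resting B cells use little glucose, and stimulated B cells take up more of it as they grow and divide.

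Levels are FPKM, fragments per kilobase of gene scaled to the mapped fragments of the library, and 1 value was given per gene, so that splice forms such as the M1 and M2 forms of Pkm were not separated. The depth of the libraries is unknown. The FPKM of all genes summed to 477079 to 491459 on day 0 and to 547355 to 563586 on day 3, and replicates correlated with r between 0.993 and 0.998 across genes. Slc16a1 was at 22.6 and 23.0 FPKM in Mb1Cre and at 9.50 to 10.8 in Mct1f/fMb1Cre cells on day 3, and at 3.71 to 4.33 in both genotypes on day 0. This value is per gene and does not separate reads inside and outside the deleted exons. How complete the deletion was on either day was not tested. All 6 B cell markers were at 84.6 FPKM or more in every library. The summed level of 12 myeloid markers was 1161 to 2354 FPKM on day 0 and 17.1 to 27.4 on day 3, that of 9 erythroid markers 145 to 259 and 10.3 to 20.7, and that of 6 T cell markers 32.6 to 35.9 and 1.87 to 2.71; of the erythroid markers, Hbb-bs was at 0 in all 5 day 3 libraries. The first Mct1f/fMb1Cre day 0 library stood apart with the 2354 FPKM of myeloid markers. It also held 31.1 FPKM of the Y-linked gene Ddx3y, which was at most 0.24 in the other 3 day 0 libraries and 14.7 to 16.9 in the 5 day 3 libraries. In Mb1Cre cells this Y-linked signal was therefore split by day and cannot be told apart from activation. In Mct1f/fMb1Cre cells, 20 of the genes described here rose and 10 fell with activation without that first library, and 21 and 10 with it as the only day 0 library. In bulk RNA, fewer cells of a type and less RNA per cell cannot be told apart. The part of myeloid, erythroid and T cells in the day 0 level of any gene that fell was not tested.

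The sequences before the start sites of 6 of these genes show what the promoters share and where they differ. They belong to Ldha, Hk2 and Slc2a6, which rose on day 3, to Pgk1 and Eno2, which rose too and had the lowest interaction p-values of the genes described here, and to Ldhb, which fell. Each is the 250 bases before the RefSeq start site on GRCm38.p6, 5′ to 3′ on the strand of the gene. Capitals mark matches, on either strand, to ACGTG and GCGTG (the core bound by hypoxia-inducible factors), CACGTG (the E-box bound by MYC and MAX, in which each strand also reads ACGTG) and GGGCGG (the GC box bound by SP1).
Ldha (chr7:46845554-46845803, + strand): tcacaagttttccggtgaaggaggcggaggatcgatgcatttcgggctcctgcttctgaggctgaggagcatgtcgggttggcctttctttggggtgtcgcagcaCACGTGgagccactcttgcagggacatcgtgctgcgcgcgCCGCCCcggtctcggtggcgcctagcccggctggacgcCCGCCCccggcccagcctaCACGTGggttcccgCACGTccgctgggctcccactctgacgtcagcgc
Hk2 (chr6:82774455-82774704, - strand): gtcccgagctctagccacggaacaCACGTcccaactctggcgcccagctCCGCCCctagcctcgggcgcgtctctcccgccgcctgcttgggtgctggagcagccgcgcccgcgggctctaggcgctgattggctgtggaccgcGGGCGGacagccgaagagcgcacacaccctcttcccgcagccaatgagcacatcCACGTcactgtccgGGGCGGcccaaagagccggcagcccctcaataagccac
Slc2a6 (chr2:27027999-27028248, - strand): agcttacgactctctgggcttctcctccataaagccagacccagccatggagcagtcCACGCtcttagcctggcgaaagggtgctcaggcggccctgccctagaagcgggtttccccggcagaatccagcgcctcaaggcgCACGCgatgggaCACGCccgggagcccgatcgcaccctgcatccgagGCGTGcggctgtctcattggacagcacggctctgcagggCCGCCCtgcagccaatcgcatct
Pgk1 (chrX:106186850-106187099, + strand): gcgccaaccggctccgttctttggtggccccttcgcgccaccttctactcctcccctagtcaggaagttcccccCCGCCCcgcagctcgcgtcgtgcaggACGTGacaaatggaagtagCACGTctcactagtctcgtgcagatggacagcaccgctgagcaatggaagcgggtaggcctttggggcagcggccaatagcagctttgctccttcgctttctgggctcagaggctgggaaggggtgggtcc
Eno2 (chr6:124769674-124769923, - strand): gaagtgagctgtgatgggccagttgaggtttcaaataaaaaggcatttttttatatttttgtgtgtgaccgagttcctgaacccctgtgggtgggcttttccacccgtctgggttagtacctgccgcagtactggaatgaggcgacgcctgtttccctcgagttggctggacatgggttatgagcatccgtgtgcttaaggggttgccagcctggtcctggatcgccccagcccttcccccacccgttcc
Ldhb (chr6:142507958-142508207, - strand): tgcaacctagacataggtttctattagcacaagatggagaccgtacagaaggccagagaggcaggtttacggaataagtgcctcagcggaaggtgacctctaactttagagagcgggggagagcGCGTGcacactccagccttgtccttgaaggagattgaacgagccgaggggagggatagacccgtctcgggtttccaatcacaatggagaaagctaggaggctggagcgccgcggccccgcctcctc

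The Ldha stretch, 1 of the 2 RefSeq windows of that gene, held 2 CACGTG matches, 5 ACGTG matches when each E-box is read on both strands, and 2 GC boxes. The other Ldha window, over 300 bases that include 50 after the start site, held 2 GCGTG matches and no match to the other motifs. The contrast of Ldha with the other printed genes therefore depends on which of its windows is shown. Hk2 had 2 ACGTG and 3 GGGCGG matches, Slc2a6 had 4 GCGTG matches and 1 GC box, and Pgk1 had 2 ACGTG matches and 1 GC box. Ldhb had a single GCGTG match. No match to the 4 motifs was present in the 250 bases of Eno2. Over windows of 300 bases, which add 50 bases after the start site, RefSeq gave 52 windows for 33 of the 35 genes. Windows of the same gene can overlap, as for Aldoa and Eno1, so the counts below are of windows and can hold the same site more than once. ACGTG was in 21 of the 52 windows (40.4%) against 19.6% of the 32851 windows of all genes. GCGTG was in 26 (50.0%) against 32.4%, CACGTG in 6 (11.5%) against 7.15%, and GGGCGG in 26 (50.0%) against 35.7%. The windows of genes that rose on day 3 in Mb1Cre cells held ACGTG in 15 of 37 and those of genes that fell in 6 of 12. For GCGTG these counts were 19 of 37 and 6 of 12, for CACGTG 3 of 37 and 3 of 12, and for GGGCGG 20 of 37 and 4 of 12, with no test of any difference. Letters alone do not show that a factor binds.

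Stimulated B cells carried far more glycolytic mRNA than resting cells, and the increase was spread over the whole route from glucose uptake to lactate. The 35 genes together made up 0.428 to 0.453% of the summed FPKM in the 4 day 0 libraries and 1.63 to 1.83% in the 5 day 3 libraries. Gapdh, the dehydrogenase of the oxidation step, alone made up 34.3 to 36.3% of the day 0 sum of the 35 genes and 45.9 to 46.7% of the day 3 sum. Without Gapdh the share was 0.273 to 0.297% on day 0 and 0.884 to 0.989% on day 3. The plot of the level of each gene in the 9 libraries shows that the rise was not shared by all isoenzymes.

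**Figure D1:**
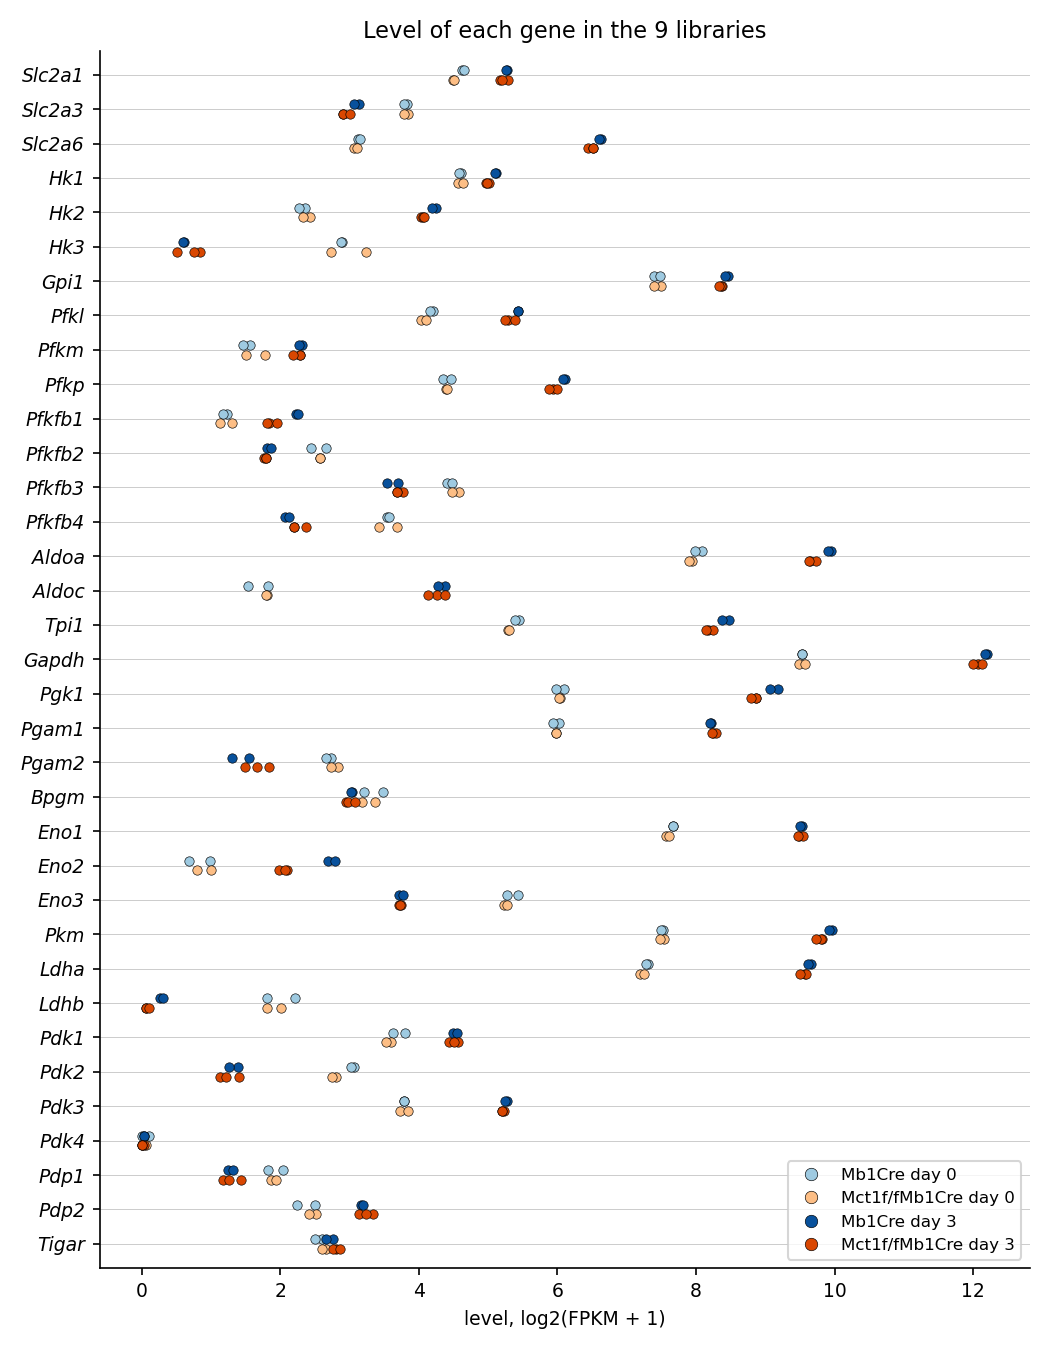
The x axis is the level as log2(FPKM + 1), each row is 1 of the 35 genes in pathway order, and each point is 1 library, coloured by genotype and day. Day 3 points lie to the right of day 0 points for most enzymes of the main route, such as Gapdh and Pgk1, and to the left for Hk3, Eno3, Ldhb and Pdk2, while Pdk4 lies at 0 to 0.07 FPKM throughout.

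For the tests, log2(FPKM + 1) was compared with limma across the 10823 genes whose mean reached 1 FPKM, and a gene was counted as higher or lower at a Benjamini-Hochberg adjusted p under 0.05 with a log2 fold change beyond 0.5. Of the 35 genes, 34 passed the filter, and Pdk4 did not. Hk3 and Ldhb passed only through their day 0 levels and Eno2 only through day 3, so these 3 had to differ between the days. In Mb1Cre cells 22 of the 34 rose from day 0 to day 3, against 24.8% of all tested genes, and 10 fell, against 33.0%. In Mct1f/fMb1Cre cells 21 rose, against 23.4%, and 10 fell, against 33.2%. Over the 31 genes that pass the filter on both days, 21 rose and 8 fell in Mb1Cre cells and 20 rose and 8 fell in Mct1f/fMb1Cre cells. The median log2 fold change of the 34 was 0.90 in Mb1Cre and 0.84 in Mct1f/fMb1Cre cells, where the medians of all tested genes were -0.12 and -0.14. The latter moved to -0.31 and -0.30 with all libraries brought to equal totals and to 0.06 and 0.06 under median-of-ratios scaling. Among the calls over all genes in Mb1Cre cells, 42.9% were higher, and this share was 32.0% and 55.4% under these scalings, and in Mct1f/fMb1Cre cells 41.4% against 31.7% and 54.9%. For 23 of the 34 genes all 5 day 3 libraries lay above all 4 day 0 libraries, and for 11 all lay below, against 35.1% and 46.6% of tested genes.

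**Figure D2:**
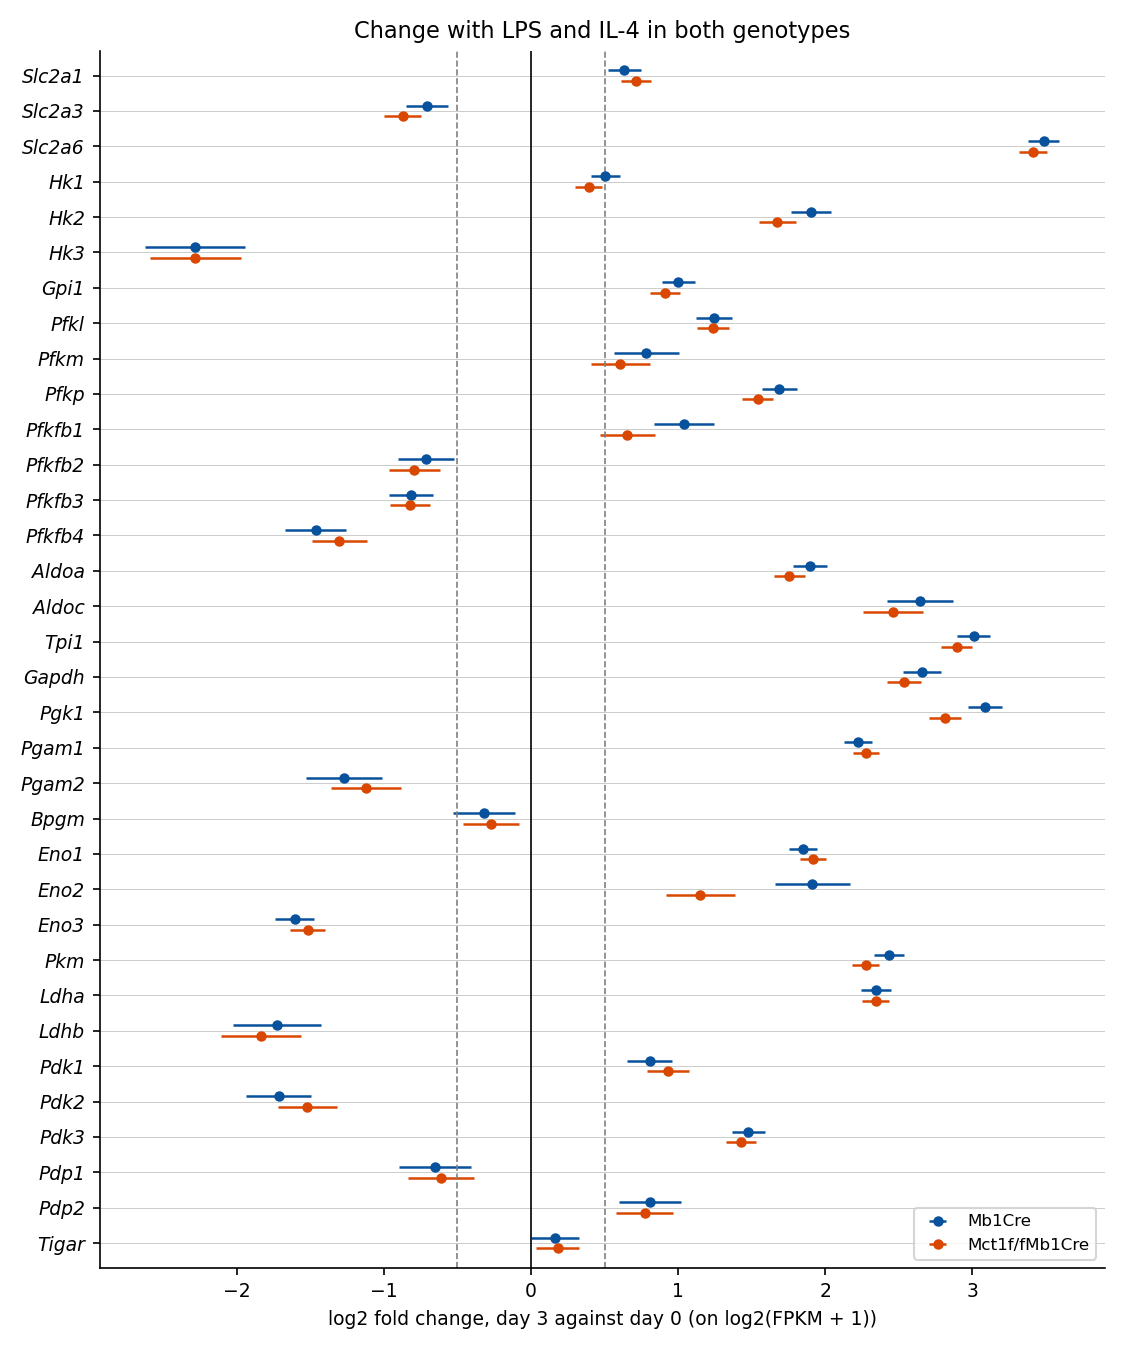
The x axis is the log2 fold change from day 0 to day 3 with its 95% confidence interval from limma, and each row is 1 of the 34 tested genes, with Mb1Cre in blue and Mct1f/fMb1Cre in orange. The dashed lines mark 0.5 in either direction; Slc2a6, Pgk1 and Tpi1 lie near 3 and Hk3 beyond -2 in both genotypes, and the intervals of Eno2 are apart.

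Among the 3 hexose carrier genes, the balance of mRNA turned from Slc2a1 and Slc2a3 to Slc2a6. Slc2a6, which encodes GLUT6, a carrier found mostly on internal membranes, was at 7.66 and 7.91 FPKM in Mb1Cre and 7.33 and 7.57 in Mct1f/fMb1Cre cells on day 0. On day 3 it was at 98.3 and 96.3 in Mb1Cre and at 85.9, 90.8 and 90.0 in Mct1f/fMb1Cre cells. That is 12.5-fold and 11.9-fold higher in the means, the largest log2 change of the 34 genes in both genotypes with the pseudocount of 1 (3.48 ± 0.05 and 3.41 ± 0.04, SE, adjusted p = 1.5e-12 and 7.7e-13). With a pseudocount of 0.1 the fall of Ldhb in Mct1f/fMb1Cre cells was larger, at -4.23. Slc2a1, the general carrier GLUT1, rose from 21.6 to 24.1 FPKM over the 4 day 0 libraries to 34.8 to 38.0 over the 5 day 3 libraries, a log2 fold change of 0.63 in Mb1Cre and 0.71 in Mct1f/fMb1Cre cells. Slc2a3, the high-affinity carrier GLUT3, fell from 12.8 to 13.4 FPKM on day 0 to 6.48 to 7.82 on day 3, by 0.71 and 0.87 on the log2 scale. Slc2a6 thus made up 17.2 to 18.0% of the summed FPKM of these 3 carriers on day 0 and 67.1 to 68.3% on day 3. The share of Slc2a1 went from 51.0 to 53.8% down to 26.2 to 28.1%, and that of Slc2a3 from 28.5 to 31.6% down to 4.79 to 5.44%.

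The hexokinases, which trap glucose by phosphorylation, changed in composition as well. Hk2, the inducible hexokinase that can dock on mitochondria, was at 4.10 and 3.82 FPKM in Mb1Cre and 4.39 and 4.02 in Mct1f/fMb1Cre cells on day 0. On day 3 it was at 17.9 and 17.2 in Mb1Cre and at 15.3, 15.7 and 15.8 in Mct1f/fMb1Cre cells. Its log2 fold changes were 1.90 ± 0.06 and 1.67 ± 0.06 (SE), and its share of the 3 hexokinases went from 11.5 to 12.4% up to 32.3 to 34.5%. Hk1, the constitutive form, kept the largest share, at 63.9 to 71.1% on day 0 and 64.5 to 66.0% on day 3. Its rise was 0.51 in Mb1Cre cells and 0.39 in Mct1f/fMb1Cre cells, where it stayed under the fold limit at an adjusted p of 3.9e-06. Hk3, a form known from myeloid cells, was at 6.41 and 6.35 FPKM in Mb1Cre and at 8.39 and 5.66 in Mct1f/fMb1Cre cells on day 0, and at 0.42 to 0.79 on day 3. The library with 8.39 was the one with the most myeloid marker RNA, and 11 of the 12 myeloid markers were at least 10-fold higher on day 0 as well. Hk3 fell by 2.28 on the log2 scale in both genotypes, and by 2.03 in Mct1f/fMb1Cre cells without that library. With a pseudocount of 0.1 the changes were -3.40 and -3.29 and with 5 they were -1.05 and -1.09. The part of other cells in this was not tested.

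The committing step, phosphofructokinase, rose in all 3 subunit genes. Pfkp, the platelet-type subunit, was at 19.5 to 21.1 FPKM on day 0 and at 68.0 and 67.0 in Mb1Cre and 60.0, 62.9 and 58.1 in Mct1f/fMb1Cre cells on day 3. Pfkl, the liver-type subunit, went from 15.4 to 17.4 up to 36.9 to 42.2 FPKM. Pfkm, the muscle-type subunit, went from 1.75 to 2.42 up to 3.53 to 3.99. The log2 fold changes in Mb1Cre cells were 1.69, 1.25 and 0.78 and in Mct1f/fMb1Cre cells 1.54, 1.24 and 0.61. Pfkp made up 50.1 to 53.5% of the 3 on day 0 and 58.5 to 59.6% on day 3.

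The PFKFB enzymes make or remove fructose 2,6-bisphosphate, the activator of phosphofructokinase. Here the mRNA of 3 of 4 moved the opposite way to that of their target. Pfkfb3, the form with the strongest kinase over phosphatase activity, fell from 20.1 to 22.9 FPKM on day 0 to 10.7 to 12.7 on day 3, by 0.82 on the log2 scale in both genotypes. Pfkfb4 fell from 9.75 to 11.9 to 3.17 to 4.15 FPKM, by 1.46 in Mb1Cre and 1.30 in Mct1f/fMb1Cre cells. Pfkfb2 fell from 4.41 to 5.33 to 2.39 to 2.63 FPKM. The myeloid marker sum was higher on day 0 too, and the part of other cells in these 3 falls was not tested. Pfkfb1 was the exception, with 1.35 and 1.25 FPKM in Mb1Cre and 1.46 and 1.18 in Mct1f/fMb1Cre cells on day 0, and with 3.67 and 3.79 in Mb1Cre and 2.58, 2.86 and 2.51 in Mct1f/fMb1Cre cells on day 3. It rose by 1.04 ± 0.09 and 0.66 ± 0.08 on the log2 scale (SE). The summed FPKM of the 4 enzymes was 37.2 to 41.2 on day 0 and 20.0 to 21.8 on day 3. Tigar, which encodes a phosphatase that removes the same activator, was at 4.64 to 5.29 FPKM on day 0 and 5.31 to 6.27 on day 3, with log2 fold changes of 0.16 (adjusted p = 0.055) and 0.18 (adjusted p = 0.024), both under the fold limit. With equal library totals these were -0.0071 and 0.03.

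In the middle and lower part of the route, every main enzyme rose. Pgk1, the kinase of the first ATP-forming step, was at 67.3 and 62.3 FPKM in Mb1Cre and 64.6 and 64.0 in Mct1f/fMb1Cre cells on day 0, and at 580 and 537 in Mb1Cre and 464, 466 and 444 in Mct1f/fMb1Cre cells on day 3. Its rise was 8.62-fold in Mb1Cre and 7.13-fold in Mct1f/fMb1Cre cells, and the day 3 libraries of the genotypes did not overlap. Tpi1, which interconverts the triose phosphates, rose from 42.6 and 40.7 FPKM to 354 and 330 in Mb1Cre cells and from 38.1 and 38.4 to 288, 303 and 281 in Mct1f/fMb1Cre cells. Gapdh was at 740.2 and 736 FPKM in Mb1Cre and 715 and 763 in Mct1f/fMb1Cre cells on day 0. On day 3 it was at 4728 and 4589 in Mb1Cre and at 4307, 4460.5 and 4104 in Mct1f/fMb1Cre cells, 6.31-fold and 5.80-fold higher. Pkm, the pyruvate kinase gene of most tissues, rose from 178 to 185 FPKM to 1001 and 972 in Mb1Cre and 898, 893 and 853 in Mct1f/fMb1Cre cells. Gpi1, the isomerase after hexokinase in the upper part of the route, rose less than these genes. It went from 166 to 179.8 FPKM to 322 to 351, with log2 fold changes of 1.00 and 0.91.

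Several of these mRNAs have near-identical processed copies in the mouse genome, so that their exact level depends on how reads were shared out. The copies listed in the table were low. Eno1b was at 0 to 0.19 FPKM, Aldoart1 at 0.03 to 0.75, Aldoart2 at 0 to 0.03 and Pgk2 at 0 to 0.07. Gapdhs, the sperm form of Gapdh, is a separate gene and not a processed copy, and was at 1.26 to 2.75. Reads shared between Gapdh and its processed copies were not examined.

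For enolase and phosphoglycerate mutase, the ubiquitous form rose and the muscle form fell. Eno1, the general enolase, went from 188 to 202 FPKM on day 0 to 708 to 748 on day 3, log2 fold changes of 1.85 and 1.92. Eno3, the muscle enolase, fell from 36.4 to 42.1 FPKM to 12.1 to 12.6, by 1.61 and 1.52, and its share of enolase FPKM fell from 15.6 to 17.2% to 1.60 to 1.71%. Pgam1, the general phosphoglycerate mutase, rose from 60.5 to 64.1 FPKM to 293 to 311, while Pgam2, the muscle form, fell from 5.33 to 6.13 to 1.47 to 2.56. Aldoa, the main aldolase, was at 237 to 269.8 FPKM on day 0 and at 992 and 959 in Mb1Cre and 798, 851 and 795 in Mct1f/fMb1Cre cells on day 3. Aldoc, the form best known from brain, rose from 1.90 to 2.55 FPKM to 16.6 to 19.8, which was 8.57-fold in Mb1Cre and 7.34-fold in Mct1f/fMb1Cre cells, and its share of aldolase FPKM went from 0.743 to 1.02% on day 0 to 1.88 to 2.27% on day 3. Bpgm, which makes 2,3-bisphosphoglycerate in red cells, was at 8.07 to 10.1 FPKM on day 0 and 6.75 to 7.43 on day 3, with log2 fold changes of -0.32 and -0.27 under the fold limit, and of -0.13 (adjusted p = 0.20) and -0.078 (adjusted p = 0.37) under median-of-ratios scaling. The erythroid markers moved in the same direction, from 145 to 259 FPKM in sum to 10.3 to 20.7, and their part in this was not tested.

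**Figure D3:**
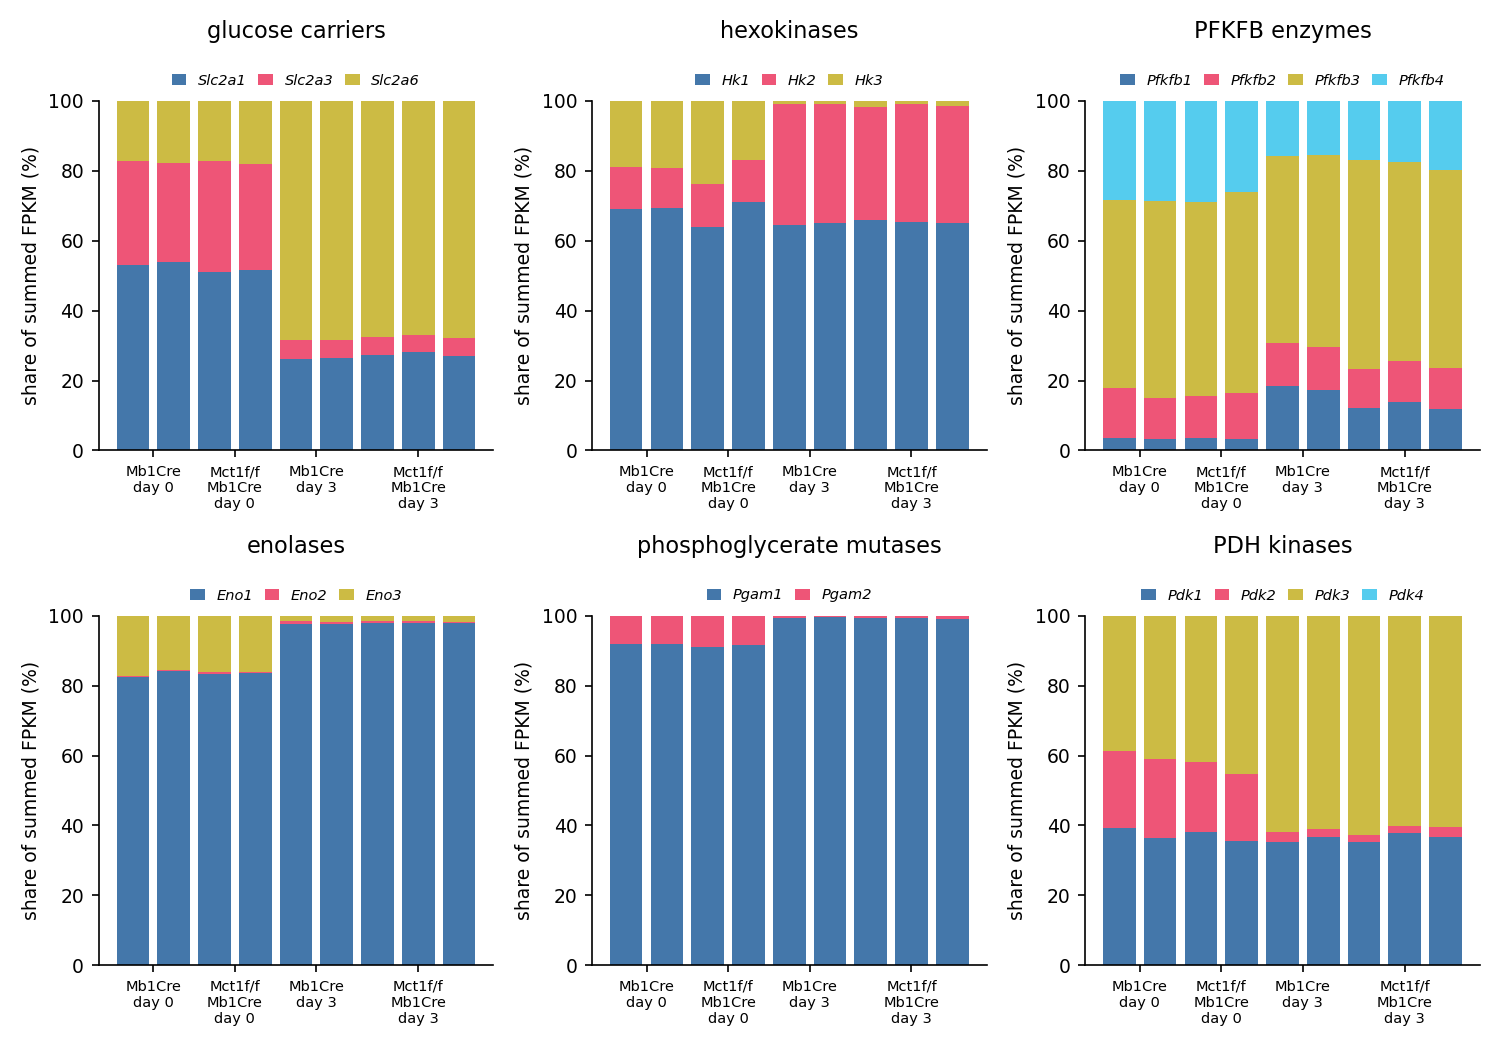
Each bar is 1 library in the order of its groups, and its coloured segments are the shares, in percent, of the summed FPKM of the isoenzymes of 1 step that each gene made up. Slc2a6, Hk2, Eno1, Pgam1 and Pdk3 take a larger share in all 5 day 3 bars than in the 4 day 0 bars, and Slc2a3, Hk3, Eno3, Pgam2 and Pdk2 a smaller one; Pfkfb1 takes 17.4 to 18.4% in Mb1Cre and 12.0 to 13.8% in Mct1f/fMb1Cre cells on day 3.

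At the end of the route, lactate dehydrogenase was almost purely of the A type on both days, with Ldha at 97.7 to 98.4% of the FPKM of Ldha and Ldhb on day 0 and at 99.97 to 99.99% on day 3. Ldha, whose subunit favours the reduction of pyruvate to lactate, was at 158 and 154 FPKM in Mb1Cre and 144 and 151 in Mct1f/fMb1Cre cells on day 0, and at 808 and 784 in Mb1Cre and 757, 772 and 726 in Mct1f/fMb1Cre cells on day 3. It rose by 2.35 ± 0.05 and 2.34 ± 0.04 on the log2 scale (SE). Ldhb, whose subunit favours the return of lactate to pyruvate, was at 3.64 and 2.51 FPKM in Mb1Cre and 2.50 and 3.02 in Mct1f/fMb1Cre cells on day 0. On day 3 it was at 0.20 and 0.24 in Mb1Cre and at 0.04, 0.04 and 0.08 in Mct1f/fMb1Cre cells. It fell by 1.73 and 1.83 on the log2 scale, and so close to 0 the size of this change depended on the pseudocount: it was -3.29 and -4.23 with a pseudocount of 0.1 and -0.63 and -0.62 with 5. The T cell, myeloid and erythroid marker sums were higher on day 0 too, and the part of those cells in the Ldhb level was not tested.

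The gatekeepers of pyruvate oxidation changed in kind. Of the kinases that switch pyruvate dehydrogenase off, Pdk3 rose from 12.2 to 13.4 FPKM to 37.7 and 36.9 in Mb1Cre and 36.6, 35.9 and 35.6 in Mct1f/fMb1Cre cells, and Pdk1 rose from 10.5 to 13.0 to 20.5 to 22.6. Pdk2 fell from 7.34 and 7.07 FPKM in Mb1Cre and 5.95 and 5.68 in Mct1f/fMb1Cre cells to 1.18 to 1.64 on day 3, by 1.72 and 1.52 on the log2 scale. Pdk4, the form known from fasting, was listed at 0 to 0.07 FPKM in all 9 libraries. Pdk3 made up 38.4 to 45.2% of the 4 kinases on day 0 and 60.0 to 62.8% on day 3, while Pdk2 went from 19.2 to 22.7% to 2.02 to 2.78%. The summed FPKM of the kinases was 29.4 to 33.1 on day 0 and 58.4 to 60.9 on day 3. Of the phosphatases that switch the enzyme on, Pdp2 rose from 3.73 to 4.72 FPKM to 7.81 to 9.06 and Pdp1 fell from 2.52 to 3.12 to 1.25 to 1.69. The log2 fold changes of Pdp1 were -0.65 and -0.61, and under quantile normalization -0.20 (adjusted p = 0.097) and -0.11 (adjusted p = 0.32).

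Between the genotypes on day 3, 1 of the genes was called and most of the other estimates lay slightly below 0. Eno2, the neuronal enolase, was the only one of the 34 called lower (against 1.53% of all tested genes), and none was called higher (against 0.887%); 13 of the 34 had an unadjusted p under 0.05. By adjusted p alone, 7 were lower, against 9.21% of tested genes, and 0 were higher, against 6.03%. The 7 were Eno2, Pfkfb1, Pgk1, Aldoa, Tpi1, Pkm and Pfkp. For 18 of the 34 all 3 Mct1f/fMb1Cre libraries lay below both Mb1Cre libraries, against 26.1% of tested genes, and for 2, Pfkfb4 and Pgam1, they lay above, against 21.0%. In all, 26 of the 34 log2 fold changes were negative, with a median of -0.07, while the median of all tested genes was -0.01. The share of negative values was 26, 24 and 23 of 34 with equal totals, median-of-ratios scaling and quantile normalization. The 35 genes made up 1.82 and 1.83% of summed FPKM in the Mb1Cre and 1.69, 1.71 and 1.63% in the Mct1f/fMb1Cre libraries of day 3.

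Eno2 was at 5.43 and 5.93 FPKM in Mb1Cre and at 3.26, 2.96 and 3.17 in Mct1f/fMb1Cre cells on day 3, and at 0.60 to 1.00 in the 4 day 0 libraries. The day 3 genotypes did not overlap, and the Mct1f/fMb1Cre mean was 55.1% of the Mb1Cre mean. The log2 fold change was -0.69 ± 0.11 (SE, 95% confidence interval -0.93 to -0.46, adjusted p = 0.0016). Eno2 was a minor enolase throughout, at 0.719 and 0.802% of enolase FPKM in Mb1Cre and 0.388 to 0.448% in Mct1f/fMb1Cre cells on day 3, while Eno1 differed by -0.01 (95% confidence interval -0.10 to 0.08). The gene lies at chr6:124760053-124769673 on GRCm38.p6, and its upstream sequence was printed above.

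The 6 genes called lower by adjusted p alone were of larger abundance, except for Pfkfb1, and differed by less. Pgk1 reached 82.1% of the Mb1Cre mean, a log2 fold change of -0.28 ± 0.05 (SE, adjusted p = 0.0028). Aldoa reached 83.5% (-0.26, adjusted p = 0.0042) and Tpi1 85.0% (-0.23, adjusted p = 0.0076). Pkm reached 89.3% (-0.16, adjusted p = 0.024) and Pfkp 89.4% (-0.16, adjusted p = 0.0498). Pfkfb1 reached 71.0% (-0.38, adjusted p = 0.014). The adjusted p of Pfkp was 0.05 or above with equal library totals, median-of-ratios scaling, quantile normalization or a replicate block in the fit. That of Pkm was 0.05 or above under the same settings except equal totals. Aldoa was so under quantile normalization and Pfkfb1 with the replicate block, while Pgk1 stayed under 0.05 in these settings. Without the first Mb1Cre day 3 library the count of 7 became 2, namely Eno2 (-0.75, adjusted p = 0.015) and Pgk1 (-0.23, adjusted p = 0.047). It was 4 without the second Mb1Cre or without the third Mct1f/fMb1Cre day 3 library. Pgk1 and Pfkfb1 are X-linked, as is Pdk3, and all 5 day 3 libraries held Ddx3y at 14.7 to 16.9 FPKM. On day 3 the erythroid marker sum was 20.5 and 20.7 FPKM in Mb1Cre and 10.3 to 13.8 in Mct1f/fMb1Cre cells and the myeloid sum 17.1 and 18.8 against 23.3 to 27.4, and their part in these differences was not tested.

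**Figure D4:**
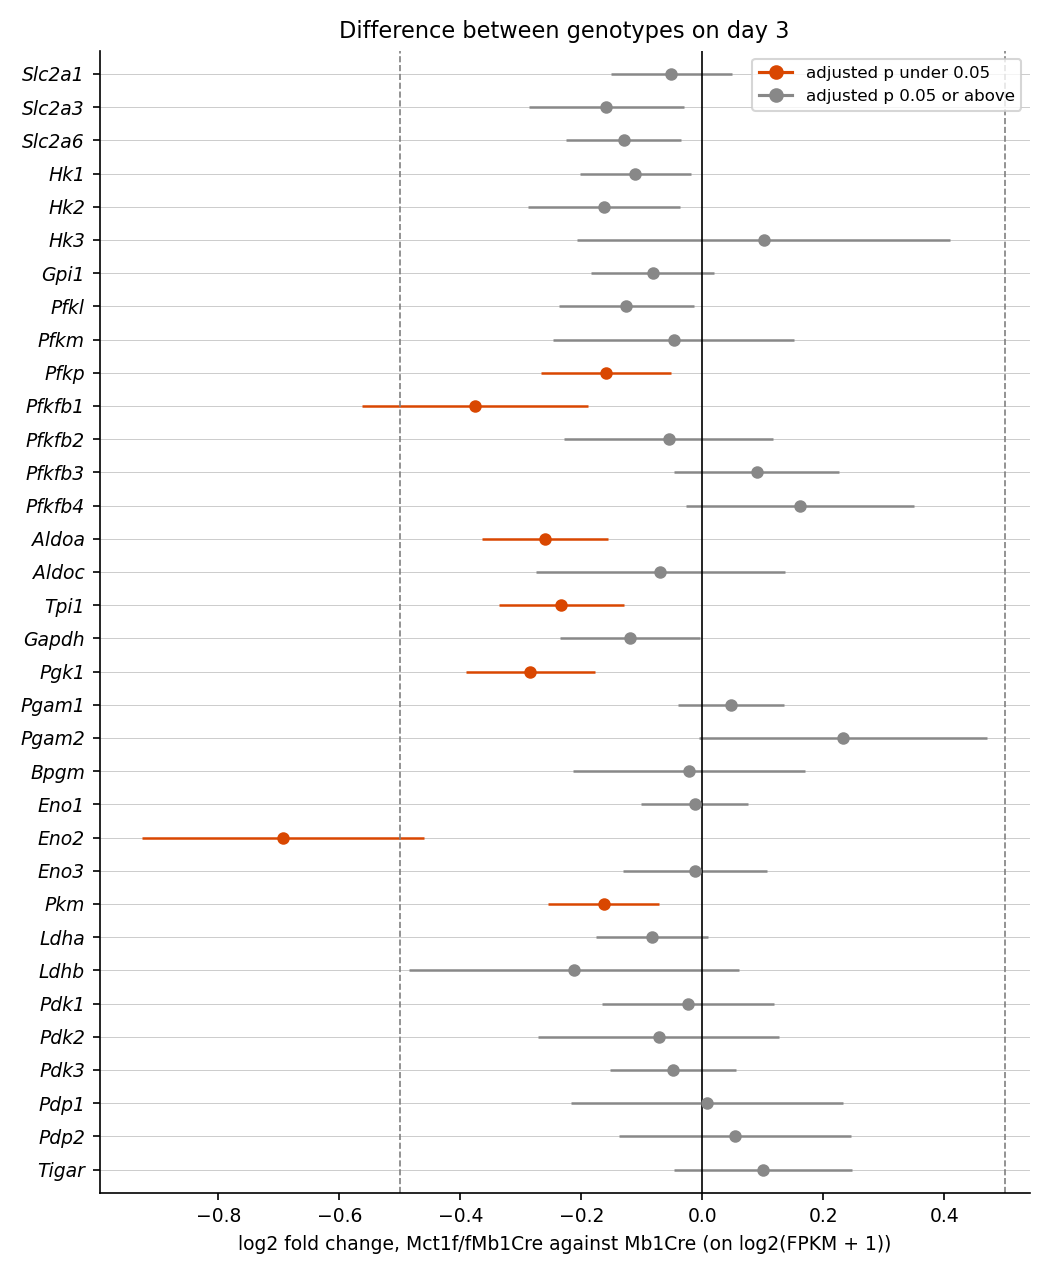
The x axis is the log2 fold change of Mct1f/fMb1Cre against Mb1Cre cells on day 3 with its 95% confidence interval from limma, for the 34 tested genes in pathway order. The 7 genes at an adjusted p under 0.05 are orange and all lie below 0, and Eno2 at -0.69 lies beyond the dashed line at -0.5.

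For other genes the adjusted p was 0.05 or above. Pgam1 was at 296 and 293 FPKM in Mb1Cre and 303, 311 and 298 in Mct1f/fMb1Cre cells (log2 fold change 0.05, 95% confidence interval -0.04 to 0.13). Ldha differed by -0.08 (-0.18 to 0.01), Gapdh by -0.12 (-0.24 to -0.0036, adjusted p = 0.16) and Slc2a6 by -0.13 (-0.22 to -0.04, adjusted p = 0.068). The gatekeepers differed little, with -0.02 for Pdk1 (-0.17 to 0.12), -0.05 for Pdk3 (-0.15 to 0.06) and 0.05 for Pdp2 (-0.14 to 0.25). Hk2 differed by -0.16 (-0.29 to -0.04, adjusted p = 0.081). Ldhb, at only 0.04 to 0.24 FPKM on day 3, differed by -0.21 (-0.48 to 0.06, adjusted p = 0.29), and its Mct1f/fMb1Cre mean was 24.2% of the Mb1Cre mean.

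On day 0, before stimulation, none of the 34 genes was called in either direction between genotypes (against 0.240% of tested genes higher and 0.0370% lower); 4 had an unadjusted p under 0.05. The estimates ran from -0.27 for Pdk2 (95% confidence interval -0.49 to -0.05, adjusted p = 0.34) to 0.13 for Pfkm (-0.09 to 0.35). Pdk2 was at 7.34 and 7.07 FPKM in Mb1Cre and at 5.95 and 5.68 in Mct1f/fMb1Cre cells.

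The test of whether the genotype difference itself changed between the days, the interaction, called Eno2 lower and no gene higher (against 2.22% and 1.02% of tested genes), and 5 of the 34 had an unadjusted p under 0.05. Eno2 passed the filter only through day 3, and over the 31 genes that pass on both days 0 interactions were called. The difference of Eno2 between genotypes was 0.07 on day 0 and -0.69 on day 3, an interaction of -0.76 ± 0.16 (SE, adjusted p = 0.015). Put as activation, the fitted log2 fold change of Eno2 was 1.91 ± 0.12 in Mb1Cre and 1.15 ± 0.11 in Mct1f/fMb1Cre cells (SE), and with a pseudocount of 0.1 it was 2.74 and 1.76. Without the second Mb1Cre day 3 library the interaction was -0.71 with an adjusted p of 0.068. By adjusted p alone Pgk1 was also lower (-0.27 ± 0.07, adjusted p = 0.039), so that 2 genes were lower and 0 higher, against 5.61% and 3.82% of tested genes. For Pgk1 the adjusted p ranged from 0.028 to 0.15 when single libraries were left out, and it was above 0.05 without 7 of the 9. The interaction of Pfkfb1 was -0.39 (adjusted p = 0.083).

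**Figure D5:**
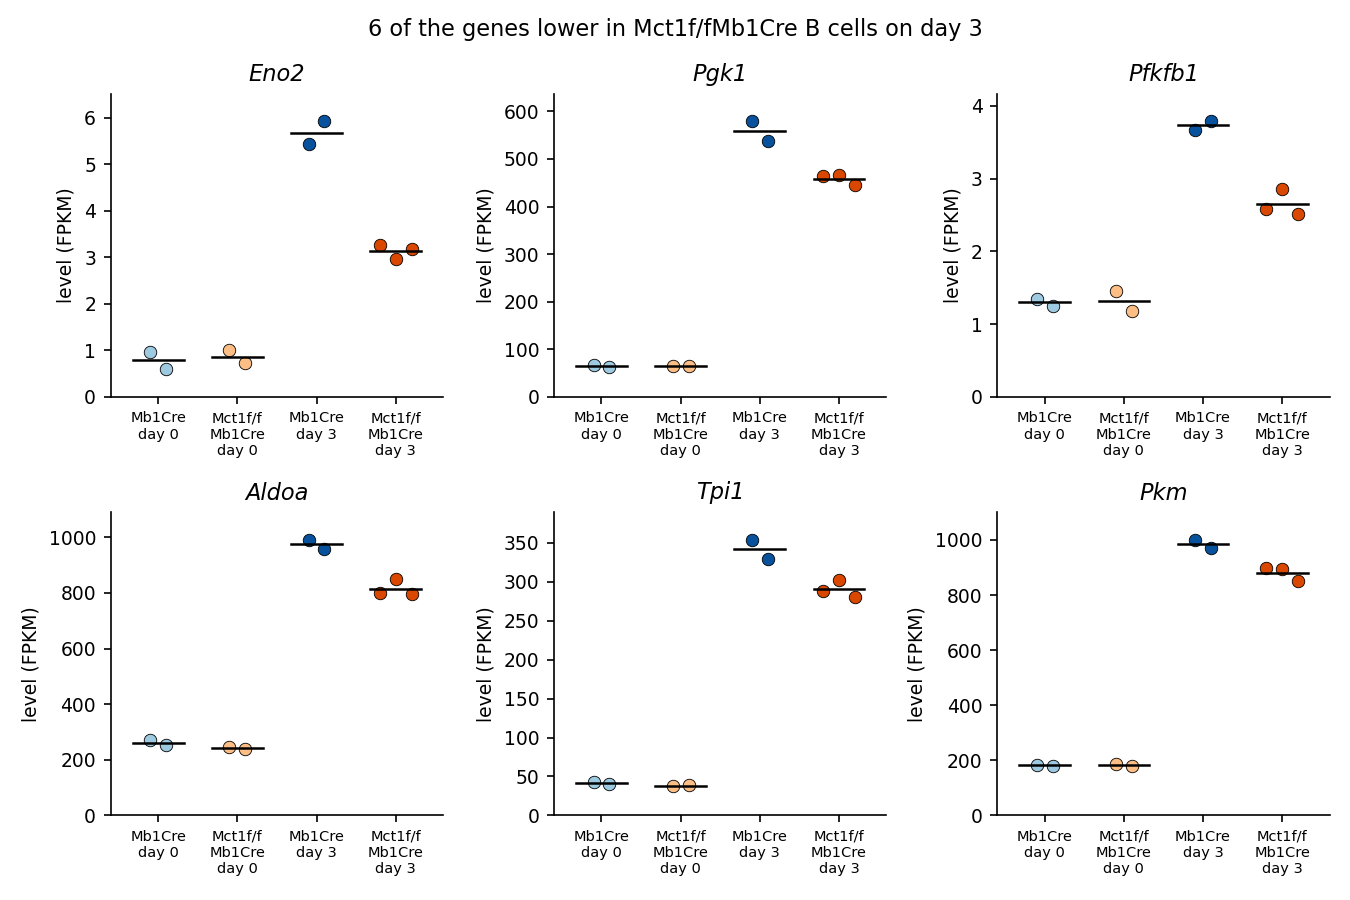
Each panel shows the FPKM of 1 gene on an axis from 0, with a point per library and a bar at the mean of each of the 4 groups. On day 3 all Mct1f/fMb1Cre points lie below both Mb1Cre points in the 6 panels, and as a ratio of means the difference is widest for Eno2, with 3.13 against 5.68 FPKM, or 55.1%.

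Of 44 other genes of glucose and pyruvate metabolism (rare isoenzymes, other hexose carriers, lactate carriers and their partners, mitochondrial pyruvate entry, gluconeogenesis, regulators), 27 were tested. Of these 7 rose and 7 fell in Mb1Cre and 6 rose and 8 fell in Mct1f/fMb1Cre cells on day 3. The shares of all tested genes were 24.8% and 33.0% in Mb1Cre and 23.4% and 33.2% in Mct1f/fMb1Cre cells, so these counts lay near the background. Slc16a3, the exporter MCT4, went from 3.62 and 4.87 FPKM to 33.0 and 30.9 in Mb1Cre and from 4.95 and 4.31 to 25.5, 26.3 and 20.8 in Mct1f/fMb1Cre cells, log2 fold changes of 2.66 and 2.16. Slc16a1 rose by 2.23 in Mb1Cre and 1.18 in Mct1f/fMb1Cre cells, and Bsg, the chaperone of both carriers, by 0.95 and 0.91. Pck2, the mitochondrial PEP carboxykinase, rose by 1.31 and 1.35 and Pcx, the pyruvate carboxylase, by 0.96 and 1.09.

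Among those that fell, Txnip, an inhibitor of glucose uptake whose transcription follows glucose supply, went from 222 to 278 FPKM on day 0 to 61.2 to 68.6 on day 3, by 1.93 and 1.81. Mlxip, one of the factors that act on Txnip, fell by 1.17 and 1.35. Pklr, Slc16a7 and Pcx passed the filter only through the day on which they were high, so these 3 had to differ between the days. Slc16a7, the carrier MCT2, fell by 1.47 and 1.43, Pklr, the liver and red cell pyruvate kinase, by 1.60 and 1.83, and Slc2a8, an internal hexose carrier, by 0.72 and 0.75. Pklr was at 1.38 to 3.17 FPKM on day 0 and at 0 to 0.03 on day 3. The erythroid marker sum was higher on day 0 as well, and the part of red cells in this was not tested.

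Between genotypes on day 3, Slc16a1 was the only one of these 27 called (-1.11 ± 0.07, SE, adjusted p = 9.1e-06), where 1.53% of all tested genes were called lower and 0.887% higher. By adjusted p alone, Slc16a3 (-0.39, adjusted p = 0.043), the subunits of the mitochondrial pyruvate carrier Mpc1 (-0.20, adjusted p = 0.027) and Mpc2 (-0.25, adjusted p = 0.032), and Dld (-0.22, adjusted p = 0.038), a subunit of pyruvate dehydrogenase, were also lower. Max, the partner of MYC, was higher (0.21, adjusted p = 0.027). That makes 5 lower and 1 higher of 27 by adjusted p alone, against 9.21% and 6.03% of all tested genes. Mpc1 was at 74.2 and 71.0 FPKM in Mb1Cre and at 61.1, 64.4 and 64.0 in Mct1f/fMb1Cre cells on day 3, without overlap. Mpc2 was at 22.2 and 20.1 against 18.2, 18.6 and 16.3 FPKM.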

How the data were processed

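RNA sequencing of 9 libraries from mouse splenic B cells was analysed from the deposited table of FPKM, in which the authors had given 1 value per gene, rounded to 2 decimals. The submitters' processing notes name Bowtie2 and the build GRCm38 (mm10); the counting step, the annotation and the number of reads are not given in the sources used here, so the depth, and the precision it gives, are unknown. Groups were taken from the labels. FPKM were not rescaled. log2(FPKM + 1) was fitted with limma 3.58.1 (R 4.3.3, trend, 4 group means) over the 10823 of 17596 genes whose mean reached 1 FPKM, and p-values were adjusted by Benjamini-Hochberg over these genes. The 4 contrasts between groups and the interaction of genotype and day were taken from that fit. The procedure was tried on simulated data for the genotype contrast of day 3 only, with planted changes beyond the fold limit. Smaller changes, the other contrasts and the interaction were not simulated. All 35 genes are named, and of 44 related genes those that passed the day 3 genotype test or had the 5 largest changes in each direction with activation in both genotypes. Isoenzyme shares are percentages of summed FPKM within a library. Pseudocount, filter, scaling, trend, samples in the fit, fold limit, single libraries and a replicate block were varied. The genes and lists were chosen with earlier results of these data known. Replicate numbers were not used to pair the libraries in the main fit. Promoter windows and positions are from RefSeq on GRCm38.p6. Figures were drawn with matplotlib.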

Additional observations from a re-analysis of the deposited data

Results flagged for a closer look

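The difference between genotypes changed between day 0 and day 3 for 4 of the named genes by the interaction test of limma, with p-values adjusted over all tested genes. For Eno2 the difference was -0.76 further down on day 3 (log2, adjusted p = 0.015), and for Pgk1 it was -0.27 further down (adjusted p = 0.039). For Slc16a1, the gene that was deleted, it was -1.06 (adjusted p = 0.00042). Emb, a partner protein of lactate carriers, moved by -0.56 (adjusted p = 0.029), with 14.7 to 16.3 FPKM in Mb1Cre and 16.5 to 21.5 in Mct1f/fMb1Cre cells on day 0 and 14.5 to 15.6 against 12.0 to 12.2 on day 3. The 21.5 FPKM was that of the first Mct1f/fMb1Cre day 0 library, which stood apart in its myeloid markers, and the second was at 16.5. The interaction of Emb was not refitted with single libraries left out. Emb was named after its values were seen. Eno2 passed the filter only through day 3. Over the 31 genes described here that pass on both days, 0 interactions were called with the fold limit. The interaction of Eno2 kept an adjusted p under 0.05 in 15 of 18 alternatives, and that of Pgk1 in 6 of 19. No group held the 4 libraries that a check for single outlying libraries needs.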

How the results depend on the processing

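Of the 170 log2 fold changes (34 genes in 5 comparisons), none that passed the test on either side changed sign under any alternative. The 22 and 21 genes that rose and the 10 that fell with activation stayed within 1.5 times these counts, except that 4 fell in each genotype with a filter at a mean of 5 FPKM and 6 with a fold limit of 1. The single gene lower in Mct1f/fMb1Cre cells on day 3 became 2 with a pseudocount of 0.1, 7 with no fold limit, and 0 with a pseudocount of 5, a filter at 5 FPKM or a fold limit of 1. The gene added by the pseudocount of 0.1 was Ldhb, which was at only 0.04 to 0.24 FPKM on day 3. The single interaction became 0 with a pseudocount of 0.1 or 5, without a filter, with a filter at 5 FPKM or with a fold limit of 1, and 2 with no fold limit. It ranged from 0 to 1 with single libraries left out. The 7 genes lower on day 3 by adjusted p alone became 4 under quantile normalization and 2 to 7 without single libraries. The causes were not tested, apart from the filter at 5 FPKM, which removes Eno2. Deviations of libraries with the same replicate number correlated at -0.12 to 0.06. This cannot decide whether the numbers pair the libraries, because the deviations mirror each other in a group of 2. With the replicate block 4 genes were lower by adjusted p alone. With the Mb1Cre numbers crossed, an alternative added after seeing the data, 3 genes were lower. Over all genes, the 96 higher and 166 lower on day 3 became 44 and 76 with a pseudocount of 5. The 110 and 240 interactions became 43 and 113. On day 3, 176 were higher with a pseudocount of 0.1, and 104 were lower with a filter at 5 FPKM, where 157 interactions were lower. The 26 higher and 4 lower on day 0 ranged from 0 to 57 and from 1 to 45. Precision is limited by 2 or 3 libraries a group and by an unknown depth.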
